A study of Mus musculus with 27 samples.

Results

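A set of 7 genes was followed that encode vitamin K-dependent proteins of the skeleton and the enzymes that serve them: Bglap and Bglap2 (osteocalcin), Mgp, Gas6, Ggcx, Vkorc1 and Vkorc1l1. They were chosen by name and function, with earlier results of these data known. All 7 were found among the 37991 genes of every profile. In this pathway the carboxylase Ggcx converts glutamate residues of secreted proteins into gamma-carboxyglutamate (Gla), which binds calcium. The reaction uses up reduced vitamin K, and the epoxide that it leaves is recycled by the reductase Vkorc1, the target of warfarin, and by its paralog Vkorc1l1. Osteocalcin is secreted by mature osteoblasts and binds bone mineral, matrix Gla protein (Mgp) is known as an inhibitor of calcification of soft tissue, and Gas6 is the ligand of the receptor tyrosine kinases Tyro3, Axl and Mertk.

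The cells came from the calvaria, the flat bones of the skull, of newborn C57BL/6J-Col3.6 CFP mice aged between 5 and 9 days, in which a fragment of the type I collagen promoter drives cyan fluorescent protein. Cells with fluorescence were sorted after 4 days of growth and were then cultured with ascorbic acid, beta-glycerol phosphate and serum, and RNA was taken at days 2, 4, 6, 8, 10, 12, 14, 16 and 18. There was no untreated or undifferentiated arm, so every comparison is between days. Each day has 3 profiles, which are sequencing lanes of 1 barcode. Their counts did not differ beyond the sampling noise (chi-square per degree of freedom of 0.999 to 1.02, tested over genes with whole-number counts of at least 30), and they were counted as 1 sample, so that n = 9 libraries. The SD over 3 profiles given below therefore covers sequencing and quantification and no difference between cultures. Because day and library coincide, a difference between single days cannot be told apart from a difference between cultures or preparations.

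The day totals ranged from 22470195 counts (day 10) to 62009157 counts (day 12), with a median of 43146793. Mitochondrial ribosomal RNA took 21.4 to 25.7% of the counts. The label osteoblast was checked against 6 markers. Of these, Col1a1 (type I collagen) was at 1526 TPM (a level per transcript length, scaled to a common sum in every profile and here to its upper quartile) at day 2 and 4263 TPM at day 18. Ibsp (bone sialoprotein) was at 0.581 and 78.4 TPM, Phex at 0.338 and 37.2 TPM, and Dmp1, a marker of late osteoblasts and osteocytes, at 0.0512 and 6.54 TPM on those days. Alpl (alkaline phosphatase) was at 9.13 TPM at day 2, 0.467 TPM at day 6 and 17.6 TPM at day 18. Spp1 (osteopontin) was lower late, with a mean of 798 TPM over days 2 to 6 and 389 TPM over days 14 to 18. Markers of other cells also moved with day: the summed level of 7 macrophage markers lay at 24.1 to 61.7 TPM at days 2 to 6 and at 522 to 2014 TPM at days 14 to 18, and that of 5 adipocyte markers at 3.21 to 7.44 and 188 to 407 TPM. Most of the macrophage sum at day 18 was Lyz2, at 1855 TPM, while the other macrophage markers stood at 2.23 to 114 TPM. None of the 7 macrophage and 5 adipocyte markers was at 0 throughout. Their part in the results for the genes of the pathway was not tested, and in these bulk profiles fewer cells of a type and less RNA per cell cannot be told apart.

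Mouse osteocalcin is encoded by near-identical genes on the minus strand of chromosome 3 (NCBIM37), of which Bglap lies at chr3:88187423-88188386 and Bglap2 at chr3:88181658-88182621, with a gap of 4801 bp between them. The coding sequences of Bglap and Bglap2 are shown because their likeness decides how far the paralogs can be measured apart. Capitals mark the bases at which the pair differ.
Bglap: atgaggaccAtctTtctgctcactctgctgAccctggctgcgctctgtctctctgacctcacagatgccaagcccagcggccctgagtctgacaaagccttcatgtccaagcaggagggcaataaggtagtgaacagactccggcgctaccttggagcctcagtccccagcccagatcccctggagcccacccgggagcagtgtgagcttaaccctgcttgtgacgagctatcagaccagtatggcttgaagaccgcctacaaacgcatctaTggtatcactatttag
Bglap2: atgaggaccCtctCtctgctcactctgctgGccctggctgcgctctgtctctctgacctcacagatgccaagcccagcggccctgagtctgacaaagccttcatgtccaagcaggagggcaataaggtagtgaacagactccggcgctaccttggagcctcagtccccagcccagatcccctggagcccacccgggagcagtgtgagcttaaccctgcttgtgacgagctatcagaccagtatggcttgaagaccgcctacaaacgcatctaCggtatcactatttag
Over the 288 bases of each, 4 bases in 4 codons differed, which left them 98.6% identical, with a longest identical run of 241 bases. Of all 50-base windows of the annotated transcripts of Bglap, 74.7% also occurred in Bglap2. No window of Mgp, Gas6, Ggcx or Vkorc1l1 occurred in a protein-coding transcript of another gene, and other transcripts were not searched. The estimated counts bore the marks of this sharing: they were not whole numbers in 13 of the 18 profiles in which Bglap was above 0 and in 15 of the 25 for Bglap2, while those of Mgp, Gas6, Ggcx and Vkorc1l1 were whole in all 27 profiles. Bglap and Bglap2 are therefore given singly and as their sum. The summed counts do not depend on how reads were divided between the pair. The summed TPM still do, because TPM are per length and the paralogs differ in length. Reads shared with genes outside the pair are not settled by the sum.

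The 250 bases before the start of Bglap are shown because the osteocalcin promoter is known for a Runx site and a TATA box near its start. They lie at chr3:88384467-88384716 on the minus strand of GRCm38.p6 (RefSeq), a later build than that of the files, and the capitals mark ACCACA, the letters of a Runx site, and TATAAA, those of a TATA box.
Bglap upstream: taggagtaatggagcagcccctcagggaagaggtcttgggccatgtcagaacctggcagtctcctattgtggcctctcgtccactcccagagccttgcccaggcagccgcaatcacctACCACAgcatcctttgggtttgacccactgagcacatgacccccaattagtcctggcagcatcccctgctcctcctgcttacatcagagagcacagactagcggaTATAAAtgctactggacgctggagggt
ACCACA lay at -132 to -127 and TATAAA at -27 to -22 from the start, and an E-box (CANNTG) at -100 to -95. All 3 motifs were searched on both strands, and they did not overlap here. Of 32851 promoters of the same length, 14.0% held ACCACA, 12.4% TATAAA, 66.2% CANNTG, and 1.84% both ACCACA and TATAAA. The promoters of Gas6, Ggcx, Vkorc1 and Vkorc1l1 held neither ACCACA nor TATAAA in this window. These are matches of letters, and binding was not measured.

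Osteocalcin went from near the counting limit to ranks 360 (Bglap2) and 486 (Bglap) by level among the 19050 genes above 0 at day 18. The ranks are by TPM, which divide by an effective length shorter than the transcript. Per full length the day 18 levels were 144 TPM for Bglap2 and 87.5 for Bglap, against 274 and 208 TPM as ranked. The sum of Bglap and Bglap2 was 9 counts at day 2, 10.6 at day 4, 14 at day 6, 15 at day 8 and 17 at day 10, and then 117 at day 12, 285 at day 14, 1592 at day 16 and 2170 at day 18. As a level, this was 2.04, 1.99, 2.57, 4.23, 6.98, 18.0, 62.5, 306 and 482 TPM in the same order. Among the 3 profiles the SD was 0.936 TPM (day 2) and 34.0 TPM (day 18), and all profiles of days 12 to 18 lay above all those of days 2 to 10. In CPM (counts scaled to a common library total) day 18 was 229-fold above day 2, with a 95% interval of 121 to 502 for counting error. The steps from day to day were 2.49-fold from day 10 to 12, 3.35-fold from day 12 to 14, 4.99-fold from day 14 to 16 and 1.55-fold from day 16 to 18, and each interval lay above 1. The step from day 2 to day 8 was 2.37-fold with an interval of 0.970 to 6.13, so that a rise over those days was not detectable at this depth, while day 10 was 3.55-fold above day 2, with an interval of 1.50 to 9.05.

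Across the genes, a straight line in day was fitted to the 9 libraries with edgeR's quasi-likelihood test, and values are fitted log2 changes from day 2 to day 18, with a call at a Benjamini-Hochberg adjusted p under 0.05 over all genes. Such a change is the slope of the line over the range of days and can differ from the measured fold. The p-values measure the scatter of the libraries around the line, and the labels do not say whether the days came from separate cultures. Of the 7 genes, 6 rose and none fell. The exception was Mgp, and Vkorc1l1 passed only narrowly. Over all 15659 genes tested, 28.3% rose and 26.1% fell, with a median change of 0.05. The sum of Bglap and Bglap2 had a fitted change of 9.56 ± 0.73 (SE, n = 9 libraries, adjusted p = 1.45e-05 by edgeR), which ranked 31 among the genes tested. The line does not follow the shape of the sum, and its change is not a measure of the fold, which was 229 in CPM. Over days 2 to 10 alone the change was 1.86 ± 0.69 (adjusted p = 0.0832 by edgeR). Over days 8 to 18 alone it was 7.73 ± 0.48 (adjusted p = 0.00012 by edgeR). Bglap2 singly changed by 2.54 ± 0.79 over days 2 to 10 (adjusted p = 0.049 by edgeR), which was just past the threshold. These part-series fits share days 8 and 10 and were chosen after the daily values had been seen.

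**Figure D1:**
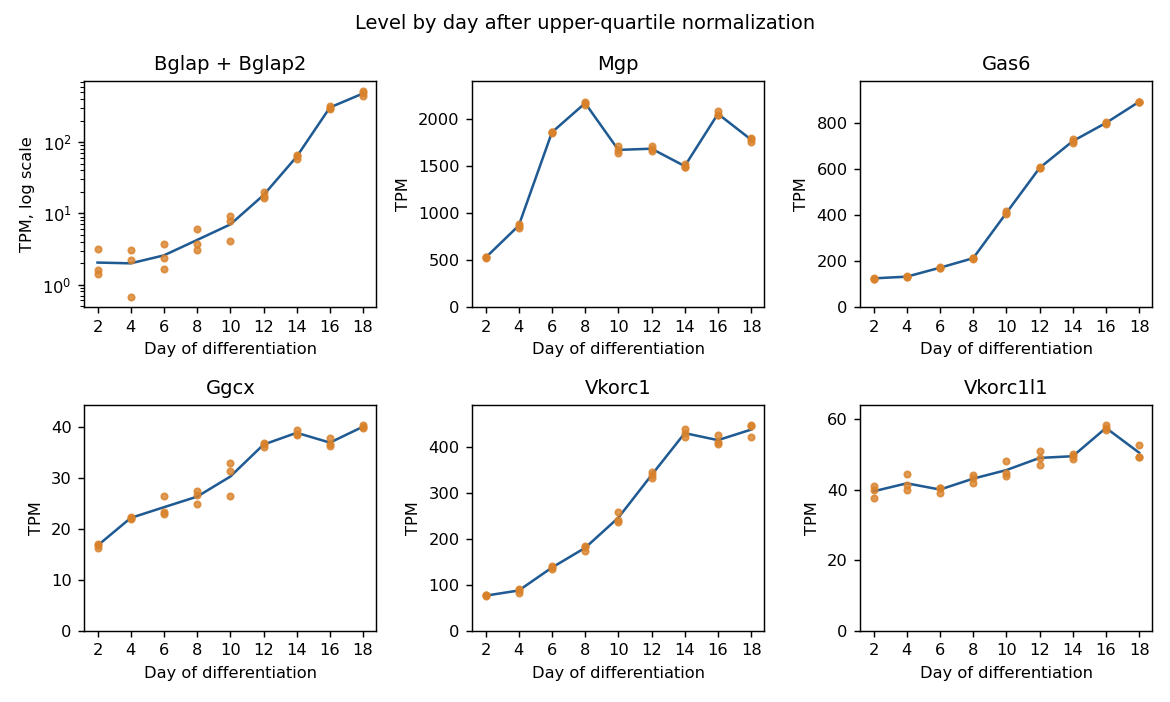
Level of each gene in TPM after upper-quartile normalization against day of differentiation, with points for the 3 profiles of a day and a line through their mean. Osteocalcin is on a log axis and stays below 10 TPM until day 10, Mgp peaks at day 8 with 2172 TPM, Gas6, Ggcx and Vkorc1 climb over the series, and Vkorc1l1 stays between 39.5 and 57.5 TPM.

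Singly, both paralogs contributed. Bglap had 4.58 counts at day 2, then 1, 2.38, 1 and 2 counts at days 4 to 10, and 35.1, 118, 632 and 757 counts at days 12 to 18. Bglap2 had 4.42, 9.60, 11.6, 14 and 15 counts at days 2 to 10, and 81.9, 167, 960.4 and 1413 counts at days 12 to 18. Both rose in the line fit, Bglap2 by 9.21 ± 0.63 (adjusted p = 1.04e-05 by edgeR) and Bglap by 11.27 ± 1.11 (adjusted p = 4.75e-05 by edgeR). Since Bglap stood at 3 counts or fewer at days 4 to 10, its fitted change is not a measure of its fold. From day 14, with at least 285 summed counts, Bglap took 41.5% of the counts of the pair at day 14, 39.7% at day 16 and 34.9% at day 18. On days 2 to 10, with at most 17 counts in all, its share lay between 6.67 and 50.9%, and within a day the profiles ran from 0 to 100% at days 2 and 4. The log2 ratio of Bglap to Bglap2 had a slope of 1.08 over the series (exact permutation test over 9 days, two-sided p = 0.357, adjusted over 3 ratios 0.357). It was 2.90 without day 2 (adjusted p = 0.00248 by the same exact test) and -0.25 without replicate 3, so that no direction of the split was established.

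**Figure D2:**
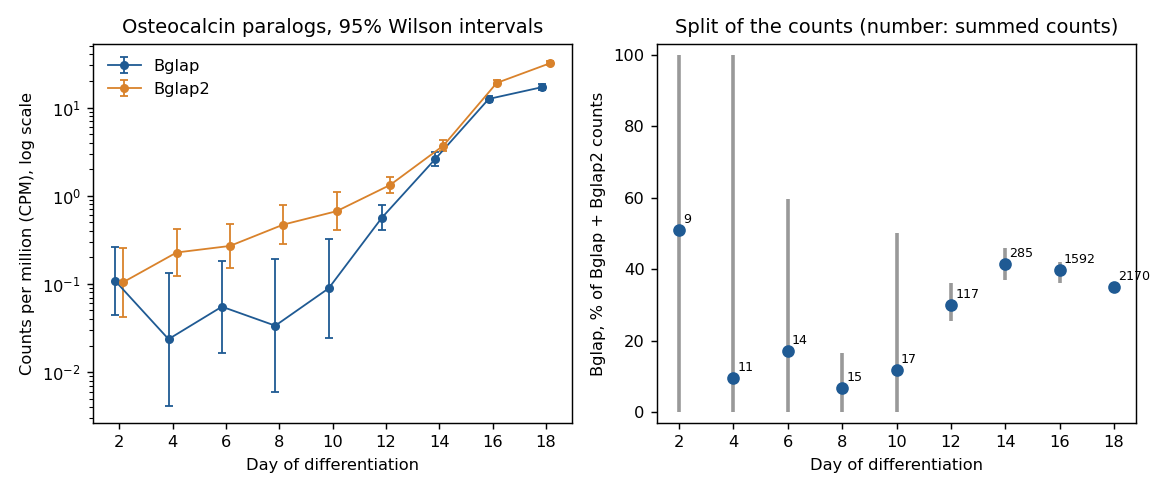
Left, CPM of Bglap and Bglap2 by day on a log axis, with 95% Wilson intervals for counting error. Right, share of Bglap in the summed counts of Bglap and Bglap2, with the range over the 3 profiles as a bar and the summed counts beside each point: the share spans 0 to 100% at days 2 and 4 and 34.6 to 35.2% at day 18.

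Mgp was the most abundant of the genes on all 9 days, and its course was not a steady rise. It was at 526 TPM at day 2, 868 at day 4, 1862 at day 6 and 2172 at day 8, then 1674 at day 10, 1687 at day 12, 1501 at day 14, 2058 at day 16 and 1783 at day 18. The SD over 3 profiles was at most 2.52% of the mean. On day 8 it ranked 26 among the 18724 genes above 0 and at day 18 it ranked 42 among 19050. Day 8 was 4.14-fold above day 2 in CPM (interval 4.01 to 4.28) and day 18 was 0.719-fold of day 8 (interval 0.703 to 0.736). In TPM day 18 was 0.821-fold of day 8, outside that interval, which covers counting error only. The line fit gave 1.02 ± 0.50 (adjusted p = 0.11 by edgeR), while the spline fit passed (adjusted p = 2.01e-05 by edgeR). Fitted by parts, the change was 1.93 ± 0.46 over days 2 to 10 (adjusted p = 0.0219 by edgeR) and -0.19 ± 0.20 over days 8 to 18 (adjusted p = 0.578 by edgeR), and the difference between the parts was not tested. The call of the line fit turned on its settings: with DESeq2 the change was 1.00 (adjusted p = 0.0424), and without day 8 it was 1.18 (adjusted p = 0.0434 by edgeR). Mgp lies at chr6:136820957-136824326 on the minus strand.

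Gas6 rose throughout the series. Its levels were 125, 132, 171 and 213 TPM at days 2 to 8, and 409, 605, 722, 801 and 893 TPM at days 10 to 18, each day above the one before, with an SD over profiles of at most 2.38% of the mean. Day 18 was 6.29-fold above day 2 in CPM (interval 6.14 to 6.43) and 7.15-fold in TPM, outside this interval for counting error. The fitted change was 3.21 ± 0.26 (n = 9 libraries, adjusted p = 2.09e-05 by edgeR), with 1.67 ± 0.27 over days 2 to 10 and 1.81 ± 0.28 over days 8 to 18. Gas6 (chr8:13465374-13494535, minus strand) stood at rank 854 by level at day 2 and at rank 91 at day 18.

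Together, the substrates grew and their mix changed. The summed level of Mgp, Gas6, Bglap and Bglap2 was 653 TPM at day 2, 2389 at day 8 and 3158 at day 18. Mgp made up 80.6% of this sum at day 2, 91.5% at day 6 and 56.5% at day 18. Gas6 made up 19.1% at day 2, 8.41% at day 6 and 28.3% at day 18, with its highest share, 31.6%, at day 14. Osteocalcin made up 0.312% at day 2, 0.126% at day 6, 2.73% at day 14, 9.67% at day 16 and 15.3% at day 18. The ratio of Mgp to osteocalcin went from 258 at day 2 and 725 at day 6 to 3.70 at day 18. Its log2 slope was -7.23 over the series (exact permutation test over 9 days, two-sided p = 0.00148, adjusted p = 0.00222). These shares rest on effective lengths, and per full length the levels at day 18 were 1225 TPM for Mgp, 1026 for Gas6, 87.5 for Bglap and 144 for Bglap2.

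**Figure D3:**
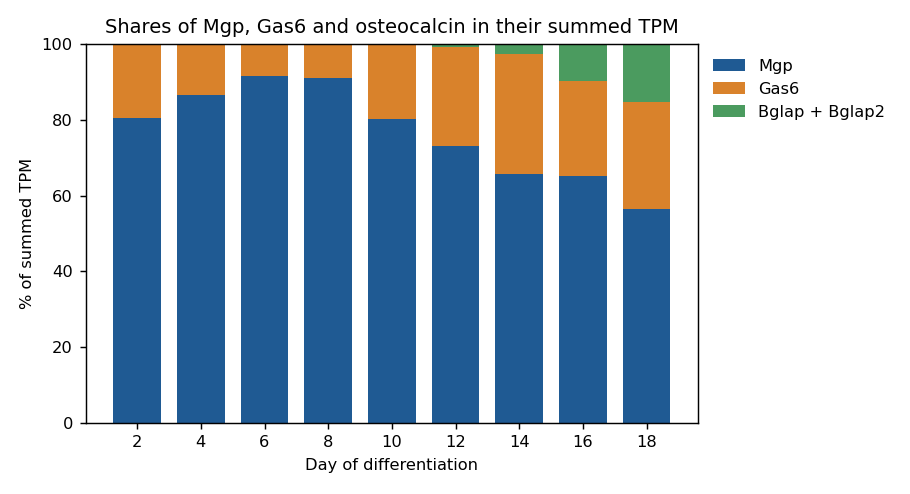
Shares of Mgp, Gas6 and the sum of Bglap and Bglap2 in their summed TPM for each day, as stacked bars that reach 100%. Osteocalcin is at most 0.779% of the bar up to day 12 and reaches 15.3% at day 18, and Mgp goes from 91.5% at day 6 to 56.5%.

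Ggcx, the only known gamma-glutamyl carboxylase and so the enzyme that all these substrates share, rose moderately. It was at 16.8 TPM at day 2, 22.2 at day 4, 24.3 at day 6, 26.4 at day 8 and 30.3 at day 10, then 36.6, 38.9, 37.0 and 40.2 TPM at days 12 to 18. In TPM all profiles of days 12 to 18 lay above those of days 2 to 10. In CPM day 12 was 1.03-fold of day 10, with an interval for counting error that included 1, so a step between these days was not detectable there. Day 18 was 2.12-fold above day 2 in CPM (interval 1.98 to 2.27) and 2.40-fold in TPM, outside this interval for counting error. The fitted change was 1.11 ± 0.14 (adjusted p = 0.000141 by edgeR). Ggcx passed in both parts of the series, with 0.81 ± 0.14 over days 2 to 10 and 0.47 ± 0.13 over days 8 to 18 (adjusted p = 0.00614 and 0.049 by edgeR). The second was just past the threshold, and the parts share days 8 and 10. The summed level of the substrates per level of Ggcx was 39.0 at day 2, 90.5 at day 8, 58.7 at day 14 and 78.6 at day 18. Ggcx lies at chr6:72364302-72380706 on the plus strand.

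The reductases parted. Vkorc1 was at 76.6, 87.9, 138 and 181 TPM at days 2 to 8, and at 247, 339, 431, 416 and 439 TPM at days 10 to 18. Day 18 was 5.06-fold above day 2 in CPM (interval 4.73 to 5.41) and 5.73-fold in TPM, outside this interval for counting error. The profile ranges of days 14, 16 and 18 overlapped in TPM. In CPM day 16 was 0.942-fold of day 14 (interval 0.908 to 0.977) and day 18 was 1.06-fold of day 16 (interval 1.02 to 1.09), so these days stayed close but differed by more than counting error. The fitted change was 2.73 ± 0.25 (adjusted p = 2.97e-05 by edgeR). Vkorc1 lies at chr7:135029741-135039131 on the minus strand, where its exons overlap those of Prss53 on the same strand. Of its 50-base windows, 67.5% occurred in another gene, and its estimated counts were not whole in 17 of 27 profiles. Prss53 was listed at a mean of 0.691 TPM against 262 TPM for Vkorc1, values that come from the same division of reads.

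Vkorc1l1 moved little. It was at 39.5, 41.8, 40.0 and 43.1 TPM at days 2 to 8, and at 45.6, 49.0, 49.5, 57.5 and 50.5 TPM at days 10 to 18. In TPM day 18 was 1.28-fold above day 2, but in CPM it was 1.06-fold, with an interval of 0.999 to 1.13. The fitted change of 0.29 ± 0.10 was just past the threshold (adjusted p = 0.0304 by edgeR), and it was not past it with TMM factors (adjusted p = 0.0615 by edgeR) or with DESeq2 (adjusted p = 0.0782). It also did not pass the spline fit (adjusted p = 0.0558 by edgeR). The other 6 genes passed that fit, against 57.5% of the 16256 genes tested in it. Vkorc1l1 lies at chr5:130417979-130460615 on the plus strand.

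The difference between the reductases was tested as a ratio. Vkorc1 was 1.94-fold of Vkorc1l1 at day 2, 2.10 at day 4, 3.44 at day 6, 4.19 at day 8, 5.41 at day 10, 6.93 at day 12, 8.71 at day 14, 7.23 at day 16 and 8.69 at day 18. The log2 slope of the ratio was 2.32 over the series (exact permutation test over 9 days, two-sided p = 5.51e-05, adjusted over 3 ratios 0.000165). Vkorc1 was thus above Vkorc1l1 on 9 of 9 days, and the distance between them widened.

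**Figure D4:**
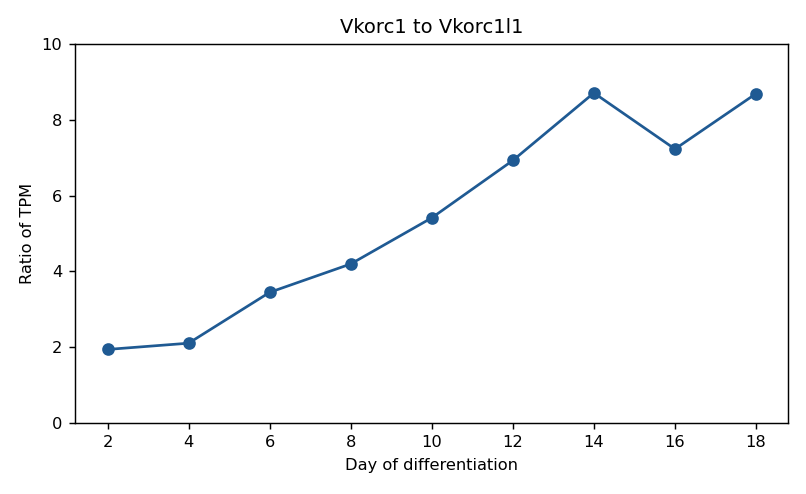
Ratio of the TPM of Vkorc1 to that of Vkorc1l1 against day of differentiation, each level being the mean of 3 profiles. The ratio climbs from 1.94 at day 2 to 8.71 at day 14 and is 7.23 and 8.69 on the last days.

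The order of the levels depended on the day and, in part, on the length used. By mean TPM over the 9 days it was Mgp (1570), Gas6 (452), Vkorc1 (262), osteocalcin as a sum (98.5), Vkorc1l1 (46.3) and Ggcx (30.3). On day 18 osteocalcin, at 482 ± 34.0 TPM (SD over 3 profiles), stood beside Vkorc1, at 439 ± 14.8 TPM, and their profile ranges touched. The TPM divide by an effective length, which is the transcript length less what a fragment takes up. For the short osteocalcin transcripts that length was 72.7 to 161 bases for Bglap and 192 for Bglap2, against full lengths of 351 to 440 and 471 bases. Per full length, the mean over days was 47.4 TPM for the osteocalcin sum, 1083 for Mgp, 521 for Gas6, 212 for Vkorc1, 50.6 for Vkorc1l1 and 35.3 for Ggcx. The osteocalcin sum then stood below Vkorc1l1, and at day 18 Bglap (87.5) and Bglap2 (144) together stood below Vkorc1 (354).

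Among 12 genes of other Gla proteins, 6 were expressed enough to be tested. Of these, 4 rose, 1 fell and 1 did not pass, with a median change of 1.84. Among all genes tested, 28.3% rose and 26.1% fell. Ucma, the Gla-rich protein of cartilage, rose from 0.577 TPM at day 2 to 21.6 at day 10 and 101 TPM at day 18 (6.15 ± 0.64, adjusted p = 6.1e-05 by edgeR). The genes of the transmembrane Gla proteins did not move together. Prrg1 went from 2.40 to 21.6 TPM (3.00 ± 0.74) and Prrg3 from 4.74 to 38.2 TPM (3.29 ± 0.41), and both rose, while Prrg4 fell by 2.87 on the log2 scale, from 17.2 to 3.04 TPM. Prrg2 did not pass (0.69 ± 0.27, adjusted p = 0.053 by edgeR). Pros1, which encodes the anticoagulant protein S, was at 36.3 TPM at day 2 and 54.3 to 67.4 TPM thereafter, with a change of 0.46 ± 0.17 (adjusted p = 0.0406 by edgeR), which did not pass when days 14 to 18 were set against days 2 to 6 (0.29, adjusted p = 0.12 by edgeR). The clotting factor genes of the liver were at or near 0: F10 had no counts on any day, which allows up to 3 counts in each library, and F2, F7, F9, Proc and Proz had at most 11 counts on any day.

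Of the 3 receptors of Gas6, 1 rose, 1 fell and 1 did not pass, where 28.3% of all genes tested rose and 26.1% fell. Axl fell from 238 TPM at day 2 to 65.0 at day 10 and 69.1 TPM at day 18 (-2.06 ± 0.25, adjusted p = 0.000114 by edgeR). Mertk rose from 2.60 to 11.8 TPM (2.07 ± 0.23, adjusted p = 7.99e-05 by edgeR), and Tyro3 was at 2.52 TPM at day 2 and 3.03 TPM at day 18 (-0.20 ± 0.25, adjusted p = 0.521 by edgeR). Axl was the most abundant of the 3 receptors on all days. The ratio of Gas6 to Axl was 0.524 at day 2, 1.14 at day 6, 6.30 at day 10 and 12.9 at day 18. Mertk is also known from macrophages, and 6 of 7 macrophage markers tested rose over the same days. The 7 markers stood at 522 to 2014 TPM in sum at days 14 to 18, of which Lyz2 made up 1855 TPM at day 18. The part of macrophages in the rise of Mertk was not tested.

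**Figure D5:**
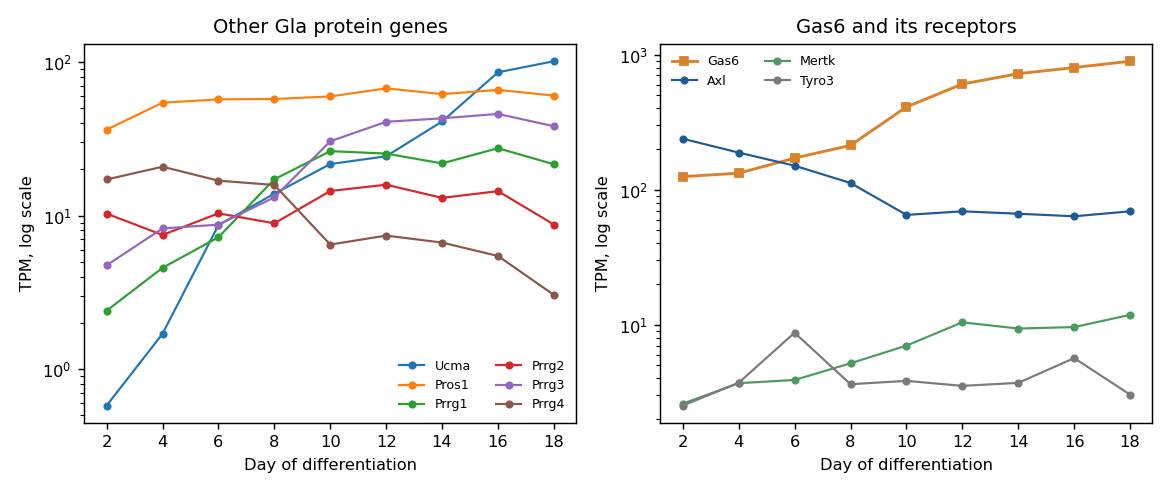
Levels by day on log axes, in TPM after upper-quartile normalization, of 6 other Gla protein genes (left) and of Gas6 with its receptors (right), each point the mean of 3 profiles. Ucma climbs from 0.577 to 101 TPM while Prrg4 goes from 17.2 to 3.04 TPM, and Gas6 crosses Axl between days 4 and 6.

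Of the genes for the handling of vitamin K described here, Nqo1 and Calu fell and Aifm2 did not pass. Among all genes tested, 28.3% rose and 26.1% fell. Nqo1, a quinone reductase that can reduce vitamin K, went from 62.6 TPM at day 2 and 58.0 at day 6 to 26.3 at day 8 and 14.9 TPM at day 18 (-2.83 ± 0.46, adjusted p = 0.000575 by edgeR). Calu, which encodes calumenin, a calcium-binding protein of the endoplasmic reticulum known as an inhibitor of the carboxylase, went from 670 to 556 TPM (-0.50 ± 0.11, adjusted p = 0.00253 by edgeR). Aifm2, a vitamin K reductase, had a change of -0.50 ± 0.30 (adjusted p = 0.186 by edgeR).

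Among 4 regulators known from the osteocalcin promoter, 1 rose, 2 fell and 1 did not pass, and all 4 passed the spline fit. Of all genes tested, 28.3% rose and 26.1% fell on the line, and 57.5% passed the spline fit. Runx2, the transcription factor of osteoblast commitment, was already at 46.4 TPM at day 2 and reached 65.7 TPM at day 12 (0.49 ± 0.16, adjusted p = 0.0232 by edgeR). Atf4 went from 156 to 101 TPM (-0.74 ± 0.20, adjusted p = 0.00952 by edgeR) and Vdr, the vitamin D receptor, from 40.5 to 12.9 TPM (-1.66 ± 0.21, adjusted p = 0.000135 by edgeR). Sp7 (osterix) was at 32.3 TPM at day 2, 2.77 at day 8 and 10.6 TPM at day 18, with no straight line (-1.23 ± 0.83, adjusted p = 0.233 by edgeR).

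Osteocalcin rose beside osteoblast and other markers. Of 6 osteoblast markers, 4 rose, none fell and 2 did not pass. The shares over all genes tested were 28.3% rising and 26.1% falling. Ibsp changed by 9.55 ± 1.15, Phex by 8.23 ± 0.76, Dmp1 by 6.79 ± 0.75 and Col1a1 by 1.23 ± 0.23. Alpl (2.22 ± 1.22, adjusted p = 0.146 by edgeR) and Spp1, which encodes osteopontin (-1.17 ± 0.54, adjusted p = 0.0932 by edgeR), did not pass, and Spp1 was lower when days 14 to 18 were set against days 2 to 6 (-1.09, adjusted p = 0.0301 by edgeR). Ibsp stood at 26 counts at day 10 and 1097 at day 12, in libraries of 22470195 and 62009157 counts. Over this step the osteocalcin sum went from 17 to 117 counts. These counts are not scaled to the library totals. All 5 adipocyte markers and 6 of 7 macrophage markers rose as well. Of the endothelial markers, 2 rose and 1 fell of 3 tested of 5, and of the chondrocyte markers 2 rose, 1 fell and 1 did not pass of 4 tested of 5.

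The genes with the daily pattern most like the osteocalcin sum were taken among 7656 genes with a mean of at least 10 TPM, by the root mean square difference of centred log2 levels over 9 days. They were Dio2, the type 2 deiodinase (0.786 log2 units), Cyp2f2 (0.827), Gm525 (0.845), the fatty acid transporter Cd36 (0.85) and the fatty acid-binding protein Fabp4 (0.881), of which Fabp4 is on the adipocyte list. Dio2 was at 0.869 TPM at day 2, 3.45 at day 8, 43.2 at day 14 and 143 TPM at day 18. Patterns closer to Mgp were found for Serpinb9 (0.161), Ly6e (0.179), Sertad4 (0.183) and Nmi (0.19). Ly6e, for example, was at 76.3 TPM at day 2, 350.0 at day 8 and 224 TPM at day 18. With 9 points, each of which is 1 library, these likenesses are a description of the days.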

How the data were processed

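RNA sequencing profiles of mouse calvarial osteoblasts at 9 time points were used, 27 profiles in all. Per the submitters' processing notes, the authors aligned reads with Bowtie 0.12.9 to NCBIM37 and quantified genes with RSEM 1.2.8. The deposited estimated counts are RSEM expected counts, not normalized. The deposited TPM are scaled to a fixed sum per profile, and the deposited FPKM to fragments per kilobase of effective length, which served as an alternative for ratios. Each TPM profile was divided by its upper quartile (taken over non-zero values) and rescaled to the mean quartile of all profiles. Estimated counts were summed over the 3 profiles of a day, rounded, and fitted with edgeR 4.0.16 (upper-quartile factors, minimum count 10, quasi-likelihood test, SE as change over the root of F) as a line in day or a natural spline with 3 df. The line took in 15659 genes. Ratios were tested on log2(TPM + 0.1) by exact permutation of the days. The 95% intervals are Wilson intervals for the CPM of a day and exact conditional binomial intervals for folds between days. Only counting error enters them and the floor of 3 counts, and CPM carry no upper-quartile factor. Symbols matched 37205 of 37991 identifiers. Coding sequences came from the GENCODE transcripts of NCBIM37 and promoters from RefSeq (GRCm38.p6), which matched 5 of the 7 genes. Alternatives were TMM, DESeq2 1.42.0, filters, profiles as samples, left-out profiles and days, and other shapes, pseudocounts and lengths. The line fit, but not the spline fit, was tested on simulated counts, which had less scatter and fewer changing genes than the data. The genes and lists were chosen with earlier results of these data known, by name and function, and the nearest patterns as the 5 genes with the smallest distance. Some genes of these lists are not reported here.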

Additional observations from a re-analysis of the deposited data

How the results depend on the processing

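Of 341 alternatives over all results, 305 kept the direction and the side of the threshold, or a value within its spread, and 36 did not. Bglap, Bglap2, their sum, Gas6, Ggcx and Vkorc1 rose under every alternative run on the full range of days, each replicate and day left out included. Added after seeing the data were fits to part of the days, in which the osteocalcin sum changed by 1.86 over days 2 to 10 and no longer passed (Bglap2 singly, 2.54, did), Mgp by 1.93 over days 2 to 10 and -0.19 over days 8 to 18, and Vkorc1l1 by 0.072 and 0.24, neither past the threshold. Bglap could not be fitted over days 2 to 10. The genes called numbered 4780 and 2432 in these fits, which hold fewer libraries, against 8510. Mgp passed the line fit with DESeq2 (1.00) and without day 8 (1.18), and its range over days left out was 0.40 to 1.32, with adjusted p from 0.0434 to 0.453 by edgeR, and over replicates left out 0.99 to 1.03. Vkorc1l1 no longer passed with TMM factors (0.24), DESeq2 (0.25), every gene with at least 1 count (0.25) or early against late days (0.22), nor without replicate 3, day 4, 6, 14 or 16. Its ranges were 0.26 to 0.30 over replicates and 0.24 to 0.35 over days left out. The slope of Bglap to Bglap2 ran from -0.25 to 2.61 over replicates and from 0.47 to 2.90 over days left out. The cause of these shifts was not tested.

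Same-numbered profiles of different days did not deviate together (mean correlation 0.00343, -0.00172 where numbers differed), and the numbers were not taken as pairs. With the 27 profiles as separate samples, 10881 genes were called with the replicate block and 10754 without, and Mgp passed in both (1.01 with the block, adjusted p = 0.00537 by edgeR, and 1.01 without). Such fits count lanes as samples. Changing the upper-quartile factors to TMM moved the median change of all genes by 0.044 log2 units. Per full length, mean levels moved most for Bglap (18.7 against 43.7 TPM). Depth limits the osteocalcin values of days 2 to 10, which rest on at most 17 counts.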
